A study of Mus musculus with 32 samples.

Results

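H3K27me3 was compared between wild-type (WT) oocytes and oocytes of the PRC1 control (PRC1ctrl), both non-growing and taken from the mouse ovary at postnatal day 6 (P6). The members were chosen by group label, and they comprise 4 of the 32 samples of the series, 2 per group, and 2 of its 16 peak lists. The WT group carried no engineered allele in its label. The PRC1ctrl group is labelled Ring1-/-; Rnf2F/+; Ddx4-Cre, so that it lacked Ring1 altogether, had a single floxed Rnf2 allele, and carried a Cre recombinase driven by Ddx4, a gene active in germ cells. Other P6 lists served for orientation, among them PRC2ctrl, labelled EedF/+; Ddx4-Cre, and PRC2cKO, labelled EedF/-; Ddx4-Cre. The PRC1cKO label reads Ring1-/-; Ring1F/-; Ddx4-Cre, which names Ring1 as floxed where its control names Rnf2, and these lists do not settle which of them was floxed there. WT lists of H3K27me3 before birth (E18.5), at postnatal day 1 (P1) and day 7 (P7, growing oocytes), the PRC1ctrl P7 list, and H2AK119ub lists of WT and PRC2ctrl at P6 were read beside them. The question the pair addresses is how far H3K27me3 differs, by gene and by region, between WT and a control that itself lacks Ring1.

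Polycomb repressive complex 2 (PRC2), whose core holds EED, trimethylates histone H3, and this mark, H3K27me3, lies on silent developmental genes and, in oocytes, broad domains between genes. Polycomb repressive complex 1 (PRC1) attaches ubiquitin to histone H2A (H2AK119ub) through RING1 or its close relative RNF2. Each complex has subunits that bind the mark of the other, and some maternal H3K27me3 of the oocyte passes to the embryo, where it silences the maternal copy of a set of imprinted genes. CUT&Tag, the assay used here, directs a transposase to a histone mark with an antibody.

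Each group was deposited as 1 list of peaks, so every value below compares 2 lists, there is no replicate check, and no p-value could be had. The peak lists do not give the read depth of any sample. A gene was called marked where a peak covered at least 1 bp within 1 kb of either annotated gene end, among 21887 protein-coding genes of RefSeq GRCm38.p6. Covered length was measured within 5 kb of both ends, over windows of at most 20 kb.

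The promoters of 8 genes open the comparison, because they show large differences in each direction and the difference in CpG content between the 2 classes of genes. They are the 4 named genes per direction with the largest difference among those whose window of 1 kb to each side of a start was wholly covered in one list and uncovered in the other, chosen after their values were seen. Each line gives the 250 bases before the annotated start, from RefSeq GRCm38.p6, 5' to 3' on the gene's strand, with CG dinucleotides in capitals. The first 4 were covered in PRC1ctrl, uncovered in WT and in PRC2ctrl, and covered by H2AK119ub in WT. All 8 genes but Etv6 had been named under a rule that asked for the same call in PRC2ctrl as in WT. Agreement of PRC2ctrl with WT at those genes was therefore part of their choice. Kank1 encodes a regulator of the cytoskeleton at focal adhesions, Lrp11 a relative of the LDL receptor, Cdc42ep2 an effector of the GTPase CDC42, and Etv6 a transcriptional repressor of the ETS family.
Kank1, chr19:25236725-25236974, plus strand: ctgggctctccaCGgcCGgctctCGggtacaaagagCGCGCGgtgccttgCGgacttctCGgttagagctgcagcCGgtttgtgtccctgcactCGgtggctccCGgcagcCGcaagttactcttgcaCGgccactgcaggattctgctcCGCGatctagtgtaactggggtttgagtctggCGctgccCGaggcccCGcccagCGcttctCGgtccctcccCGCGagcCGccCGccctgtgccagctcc
Lrp11, chr10:7589567-7589816, plus strand: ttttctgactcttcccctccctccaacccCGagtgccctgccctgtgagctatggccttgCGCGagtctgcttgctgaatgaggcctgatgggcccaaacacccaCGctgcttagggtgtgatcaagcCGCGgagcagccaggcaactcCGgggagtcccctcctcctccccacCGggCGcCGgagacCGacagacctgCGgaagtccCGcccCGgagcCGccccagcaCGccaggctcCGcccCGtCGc
Cdc42ep2, chr19:5924817-5925066, minus strand: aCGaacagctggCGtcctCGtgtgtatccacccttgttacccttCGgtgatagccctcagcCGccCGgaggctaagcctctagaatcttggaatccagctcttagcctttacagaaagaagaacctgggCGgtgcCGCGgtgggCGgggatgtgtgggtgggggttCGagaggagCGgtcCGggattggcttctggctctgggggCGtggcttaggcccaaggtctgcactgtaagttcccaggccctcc
Etv6, chr6:134035450-134035699, plus strand: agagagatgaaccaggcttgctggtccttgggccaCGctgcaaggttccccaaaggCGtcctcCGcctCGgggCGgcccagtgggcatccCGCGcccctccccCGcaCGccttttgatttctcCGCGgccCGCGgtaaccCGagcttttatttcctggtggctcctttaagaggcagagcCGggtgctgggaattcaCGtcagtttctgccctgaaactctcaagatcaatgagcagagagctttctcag

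The other 4 starts were covered in WT and uncovered in PRC1ctrl. Cdsn has 2 annotated starts, and around the start not printed here PRC1ctrl covered 1400 bases. Of the 2001 bases around each, PRC2ctrl covered 2001 at Cdsn, 1959 at Serpinb6e, 231 at Ces2a and 211 at Gimap8. WT H2AK119ub covered 2001 at Cdsn and Ces2a, 1846 at Gimap8 and 0 at Serpinb6e, so that it lay at 3 of these starts too. Cdsn encodes corneodesmosin, an adhesion protein of the skin, Ces2a a carboxylesterase, Serpinb6e a protease inhibitor of the serpin family, and Gimap8 a GTPase of the immune system.
Cdsn, chr17:35542851-35543100, plus strand: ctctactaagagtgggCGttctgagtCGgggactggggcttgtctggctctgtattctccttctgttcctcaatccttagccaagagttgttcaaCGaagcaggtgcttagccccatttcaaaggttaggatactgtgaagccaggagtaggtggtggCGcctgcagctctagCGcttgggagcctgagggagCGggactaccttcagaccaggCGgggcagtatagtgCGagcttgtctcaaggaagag
Ces2a, chr8:104733753-104734002, plus strand: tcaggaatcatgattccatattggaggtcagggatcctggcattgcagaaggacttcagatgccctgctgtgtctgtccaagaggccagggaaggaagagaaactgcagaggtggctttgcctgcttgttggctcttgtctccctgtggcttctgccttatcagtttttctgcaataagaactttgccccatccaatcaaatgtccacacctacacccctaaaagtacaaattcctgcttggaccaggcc
Serpinb6e, chr13:33843409-33843658, minus strand: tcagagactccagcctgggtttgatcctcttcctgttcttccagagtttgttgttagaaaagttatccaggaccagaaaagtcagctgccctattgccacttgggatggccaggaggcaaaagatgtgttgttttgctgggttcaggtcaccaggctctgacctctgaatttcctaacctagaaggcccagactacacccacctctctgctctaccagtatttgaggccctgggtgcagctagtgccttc
Gimap8, chr6:48646984-48647233, plus strand: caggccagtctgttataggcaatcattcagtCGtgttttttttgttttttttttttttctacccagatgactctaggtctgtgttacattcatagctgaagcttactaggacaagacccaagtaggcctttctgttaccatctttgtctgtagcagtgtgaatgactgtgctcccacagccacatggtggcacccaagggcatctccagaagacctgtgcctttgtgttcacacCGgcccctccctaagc

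The Kank1, Lrp11, Etv6 and Cdc42ep2 sequences held 24, 19, 16 and 14 CG dinucleotides, and the Cdsn, Gimap8, Ces2a and Serpinb6e sequences held 8, 2, 0 and 0. The motif searched was CG, which reads the same on both strands, and 93.0% of the promoters of all genes held at least 1 copy in these 250 bases. A start was chosen by its coverage, so these cases describe the extremes and not the typical gene of a class.

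**Figure D1:**
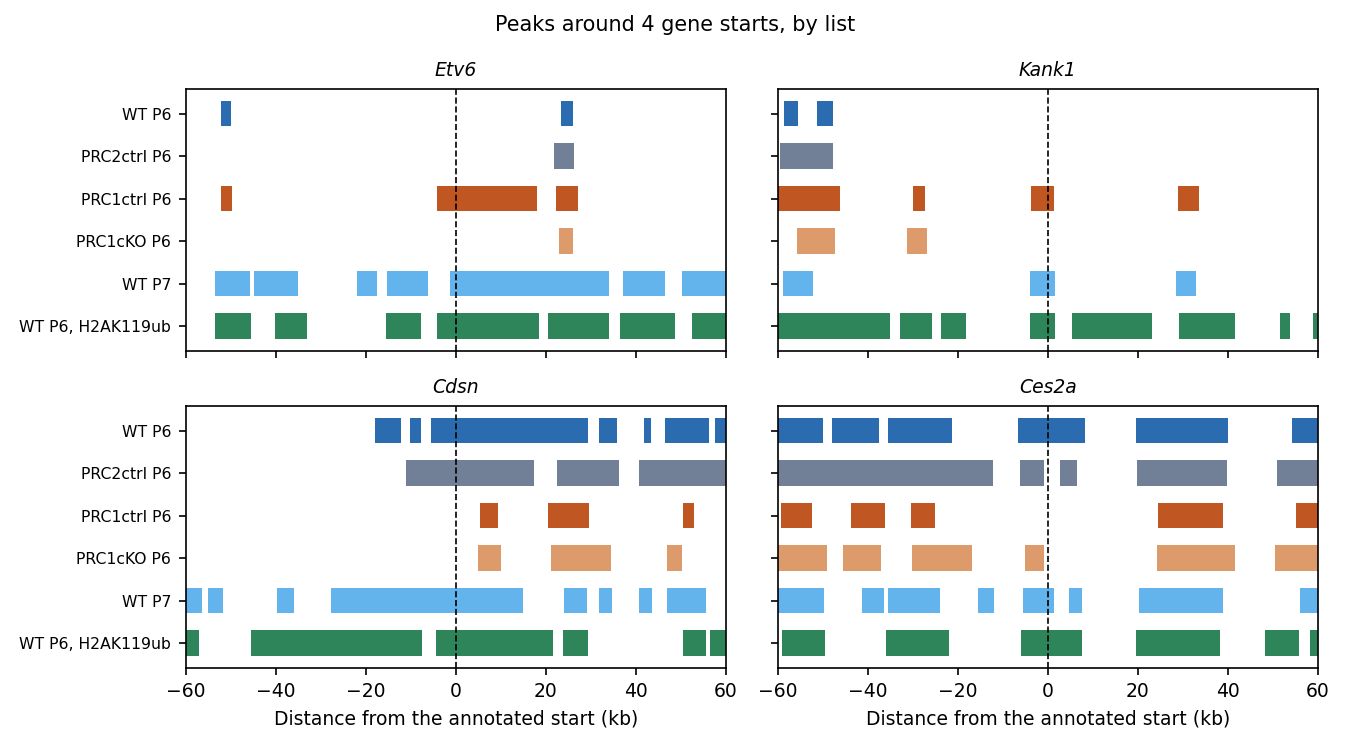
Peaks within 60 kb of the annotated starts of Etv6, Kank1, Cdsn and Ces2a, drawn as bars against distance from the start in kb (dashed line at the start, transcription towards the right), 1 row per list. Only PRC1ctrl among the 4 P6 H3K27me3 lists had a peak over the starts of Etv6 and Kank1. The call of PRC2ctrl was part of the choice of Kank1, Cdsn and Ces2a. WT P7 and WT H2AK119ub also had a peak over these starts. WT had a peak over the drawn starts of Cdsn and Ces2a, where PRC1ctrl had none.

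Around the start of Etv6, PRC1ctrl had a peak from 4.26 kb before the start to 18.1 kb after it. WT and PRC2ctrl had none there, and the nearest peaks of these lists began 23.3 and 21.9 kb inside the gene. The H2AK119ub peak of WT began 4.27 kb before the start, close to the limit of the PRC1ctrl H3K27me3 peak. At Kank1, the PRC1ctrl peak ran from 3.74 kb before to 1.44 kb after the start, and the WT P7 peak from 3.95 kb before to 1.69 kb after it. With lists trimmed to equal length within every chromosome, a choice made after seeing the data, the Kank1 difference was 0 kb. At Cdsn, a WT peak ran from 5.40 kb before to 29.4 kb after the start, while PRC1ctrl had peaks from 5.41 to 9.43 kb and from 20.5 to 29.6 kb after it.

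Across all genes the 2 lists were close. Of 21887 genes, 8241 (37.7%) were marked in both lists and 11817 in neither. WT alone marked 1069 genes, a background of 4.88% of all genes tested (exact Clopper-Pearson 95% interval 4.60 to 5.18%), and PRC1ctrl alone marked 760, a background of 3.47% (3.23 to 3.72%). Intervals here and below cover counting error only, and neighbouring genes that share a peak are not independent. The other pairs of control lists at P6 gave figures of like size: WT against PRC2ctrl left 783 genes (3.58%) in WT only and 615 (2.81%) in PRC2ctrl only, and PRC2ctrl against PRC1ctrl left 958 (4.38%) and 817 (3.73%). These comparisons share lists with each other and are given side by side only. At P7, in growing oocytes, WT alone marked 1732 genes (7.91%) and PRC1ctrl alone 345 (1.58%).

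Which class was larger depended on how the lists were cut. WT had 75732 peaks on the main chromosomes with a median width of 4.34 kb, and PRC1ctrl had 51318 with a median width of 5.78 kb, yet they covered 532 and 528 Mb. With the WT list trimmed to the number of peaks in PRC1ctrl it covered 463 Mb and the WT-only genes numbered 649 and the PRC1ctrl-only genes 1090, so that PRC1ctrl-only genes became the larger class. Peaks of at least 20 kb numbered 3842 in WT (138 Mb) and 5653 in PRC1ctrl (219 Mb). A PRC1ctrl peak held 2 or more WT peaks in 9549 cases (18.6% of PRC1ctrl peaks), and the reverse held for 1224 WT peaks (1.62%). The lowest total signal of a listed peak, the authors' own value, was 9546 in WT and 10598 in PRC1ctrl.

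Of the WT peaks 73.6% (73.3 to 73.9%) touched a PRC1ctrl peak, and of the PRC1ctrl peaks 84.7% (84.4 to 85.0%) touched a WT peak. Bases covered by both lists came to 399 Mb, which is 75.0% of the WT length and 75.5% of the PRC1ctrl length. The unshared peaks tended to be narrow and of low rank. Their median width was 3.18 kb in WT against 5.30 kb for shared peaks, and 3.96 against 6.72 kb in PRC1ctrl. By total signal, the median unshared peak stood at percentile 22.5 of the WT list and 18.3 of the PRC1ctrl list, and the median shared peak at 62.0 and 57.1. A peak of 20 kb or wider without any counterpart occurred once in WT and 13 times in PRC1ctrl.

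Over the genes marked in both lists, the median coverage was much the same, while many single genes differed in one direction or the other. The median share of the window covered was 60.4% in WT and 59.7% in PRC1ctrl, the median difference was 0 points, and 5068 of the 8241 genes (61.5%) differed by less than 10 points. Beyond that, 1673 genes had more coverage in PRC1ctrl and 1499 had more in WT. From percentile 5 to percentile 95, the difference (PRC1ctrl minus WT) ran from -25.5 to 24.9 points. Genes marked in 1 list had short coverage. Their median covered length in that list was 4.87 kb for WT-only and 4.82 kb for PRC1ctrl-only genes, and 49.2% and 58.8% of them had some coverage within 5 kb of a gene end in the other list.

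The genes whose alleles define the groups came out unmarked. Ring1, Rnf2 and Eed had 0 kb of H3K27me3 within 5 kb of their ends in WT, PRC1ctrl, PRC2ctrl and PRC1cKO at P6. H2AK119ub in WT covered 8.56, 4.54 and 5.75 kb around them. Since the mark says nothing of the allele beneath it, the genotype labels have no check in these lists. Among other members of the Polycomb machinery, 15 of 50 genes were marked in each list. Ezhip, an inhibitor of PRC2, and Lcor were in WT only, with 2.61 and 4.15 kb in WT against 0 and 2.98 kb in PRC1ctrl. Rybp, a subunit of variant PRC1, and Scml2, a germline partner of PRC1, were in PRC1ctrl only. Rybp had 2.62 kb in WT and 5.08 kb in PRC1ctrl. Scml2 had 6.38 and 4.38 kb, so that its coverage within 5 kb was larger in WT, against its call. The calls came to 2 of 50 genes in each direction (4%), near the 4.88% and 3.47% of all genes. These 4 genes were named after their values were seen.

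Hox genes and developmental transcription factors had the same calls in both lists. All 39 Hox genes and all 95 developmental transcription factors were marked in both. Hoxa was covered over 95.3% of its length in WT and 100% in PRC1ctrl, Hoxc over 100% in both, and Hoxd over 97.4% and 100%. Hoxb was covered over 96.1% in WT and 89.5% in PRC1ctrl. Of 65 genes of Wnt, Hedgehog, Bmp, Fgf and Notch signalling 60 were marked in both. Inhba, an activin subunit, was called marked in WT only by its gene ends. Its coverage was 6.18 kb in WT and 4.34 kb in PRC1ctrl, and both lists covered all 2001 bases around its annotated start. Of 45 neuronal channel and receptor genes 40 were marked in both. Within marked genes, Sox2, a pluripotency and neural factor, had 6.33 kb in WT and 12.5 kb in PRC1ctrl, with 9.26 kb in PRC2ctrl, and Bmp3 had 17.7 and 9.28 kb, with 20 kb in PRC2ctrl; both were named after their values were seen.

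Markers of the cells around the oocyte had nearly the same calls in the 2 lists. Of 36 granulosa and ovarian stroma genes the same 32 were marked in both lists and 4 in neither, with Foxl2, a granulosa transcription factor, covered over 12.5 kb in each. Of 26 blood and endothelial genes 21 were marked in both, and Hbb-bt, a globin, was marked in WT only. The oocyte genes Dazl, Figla, Nobox, Gdf9 and Sycp3 had 0 kb in WT and in PRC1ctrl, while Zp3 had 0 and 4.68 kb. Ddx4, which drives the Cre and was absent from the marked genes in WT, had 3.97 kb in WT and 5.99 kb in PRC1ctrl, with 5.60 kb in PRC2ctrl. The mark at a gene is not a level of RNA, and the purity of the samples was not tested.

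More imprinted genes were marked in PRC1ctrl only than in WT only. Of 23 genes whose imprinting depends on maternal H3K27me3, 17 were marked in WT and 20 in PRC1ctrl, with 3 in PRC1ctrl only (13.0%, against 3.47% of all genes) and 0 in WT only. PRC2ctrl marked 18 of them and PRC1cKO 15. Etv6 had 0 kb in WT, 13.0 kb in PRC1ctrl, and 0 kb in PRC2ctrl and PRC1cKO. It had 15.2 kb in WT at P7 and 0 kb in WT at E18.5 and P1. Rbms1, an RNA-binding protein, had 0 kb in WT, 4.08 kb in PRC1ctrl, 2.37 kb in PRC2ctrl and 5.10 kb in PRC1cKO, and Mbnl2, a splicing regulator, had 6.34, 8.43, 6.89 and 5.82 kb in the same order. Of these 3 genes, Etv6 showed the largest difference, and Mbnl2 differed by 2.09 kb, or by 6.26 kb at equal numbers of peaks.

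Of 34 canonical imprinted genes, 19 were marked in WT and 23 in PRC1ctrl. Ddc, H13, Impact, Mkrn3 and Snrpn were in PRC1ctrl only and Zim1 was in WT only (14.7% and 2.94%). H13, Mkrn3 and Snrpn also had coverage within 5 kb in WT, with 2.05, 4.70 and 2.24 kb against 4.39, 5.69 and 4.13 kb in PRC1ctrl. PRC2ctrl had 1.66, 6.32 and 4.22 kb there. Impact had 0 and 3.29 kb, and Zim1 had 4.90 kb in WT and 2.62 kb in PRC1ctrl. The net difference of 4 genes was 2 with windows of 5 kb. Ddc, which makes dopamine and serotonin, had 0 kb in WT and 4.32 kb in PRC1ctrl, with 0 kb in PRC2ctrl and in PRC1cKO. Both imprinted lists are small, and at P7 their net difference between the 2 genotypes was -1 and 0 genes.

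Genes of the non-growing state included 2 that had carried the mark earlier in WT. Of 25 genes of oocyte transcription and follicle dormancy, 3 were marked in WT and 5 in PRC1ctrl. Cdkn1b, the cell cycle inhibitor p27, had 2.06 kb in WT, 8.55 kb in PRC1ctrl, 8.15 kb in PRC2ctrl and 15.1 kb in PRC1cKO, after 10.7 kb in WT at P1. Jag1, a Notch ligand, had 0 kb in WT and in PRC2ctrl, 5.19 kb in PRC1ctrl and 7.40 kb in PRC1cKO, after 10.8 kb in WT at P1. Zp3, a protein of the egg coat, followed the same order with 0 kb in WT and PRC2ctrl, 4.68 kb in PRC1ctrl and 5.34 kb in PRC1cKO, after 13.3 kb in WT at P1. Within 1 kb of the annotated start, PRC1ctrl covered 2001 bases at Cdkn1b, 1192 at Jag1 and 0 at Zp3. With windows of 5 kb the net difference of the dormancy list turned from +2 to -1 genes.

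Among 38 genes of oocyte growth and the egg coat, 11 were marked in WT and 9 in PRC1ctrl. Besides Zp3 on the PRC1ctrl side (2.63%, against 3.47% of all genes), Nlrp2, Oas1c and Zar1l were in WT only (7.89%, against 4.88%). Oas1c, of the oligoadenylate synthetase family, had 10.0 kb in WT, 3.17 kb in PRC1ctrl, 6.12 kb in PRC2ctrl and 13.6 kb in PRC1cKO. Zar1l, a relative of the maternal factor ZAR1, had 3.18 and 0 kb, with 1.86 kb in PRC2ctrl, and its difference was 0 kb at equal numbers of peaks and at equal length within every chromosome. Nlrp2, a maternal-effect gene, had 3.37 and 0.433 kb, with 10.3 kb in PRC2ctrl, and its difference changed sign at equal numbers of peaks. The net difference of the list, -2 genes, was 0 at equal numbers of peaks and 0 with windows of 5 kb.

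Meiotic and germline genes gave small counts. Of 39 meiotic prophase genes, Cntd1 and Spata22 were in WT only (5.13%, near the 4.88% of all genes) and Ankrd31, Meioc, Msh5 and Sycp1 in PRC1ctrl only (10.3%, against 3.47%). Sycp1, a protein of the synaptonemal complex, had 0 kb in WT, 4.76 kb in PRC1ctrl and 3.72 kb in PRC2ctrl, and Ankrd31, which acts in meiotic DNA breaks, had 0, 4.95 and 0 kb. Spata22, a recombination factor, had 5.09 kb in WT, 0 kb in PRC1ctrl and 4.65 kb in PRC2ctrl. Meioc and Msh5 had 3.97 and 3.29 kb in WT against 4.43 and 6.89 kb in PRC1ctrl, and Cntd1 had 5.20 and 3.15 kb. Of 36 germline identity and piRNA genes, Mov10l1, Nanog and Sall4 were in WT only (8.33%, against 4.88%) and Ddx4 in PRC1ctrl only (2.78%, against 3.47%). Of 40 sperm genes, Catsper4, a subunit of the sperm calcium channel, had 8.44 kb in WT, 0.463 kb in PRC1ctrl and 11.8 kb in PRC2ctrl, a difference that was -4.93 kb in place of -7.97 kb at equal numbers of peaks, and Tekt1, a tektin of the flagellum, had 7.62, 1.34 and 4.61 kb. Catsper4 and Tekt1 were the sperm-list genes in WT only (5%, near the 4.88% of all genes). Pla2g4e, a phospholipase, was the sperm-list gene in PRC1ctrl only (2.5%, against 3.47%). With windows of 5 kb the net differences of these lists turned from 2 to -1 (meiotic), from -2 to 0 (germline) and from -1 to 1 (sperm).

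Of 28 cell cycle inhibitors and apoptosis genes 1 was in WT only (3.57%) and 3 in PRC1ctrl only (10.7%). Of 22 genes of DNA methylation 1 and 1 were (4.55% each, near the share of all genes). Of 31 early zygotic genes 3 and 2 were (9.68% and 6.45%). The shares of all genes were 4.88% and 3.47%. Bak1, a pro-apoptotic pore protein, had 0 kb in WT, 3.91 kb in PRC1ctrl and 3.28 kb in PRC2ctrl, and its difference was 0 kb at equal length within every chromosome. Cdkn1a, the inhibitor p21, had 3.69, 0 and 2.75 kb. Dnmt3a, the de novo methyltransferase that sets maternal imprints, had 0 kb in WT, 7.67 kb in PRC1ctrl, 0 kb in PRC2ctrl and 4.48 kb in PRC1cKO. Mbd2, a reader of methylated CpG, had 6.31, 2.96, 6.75 and 5.51 kb. Gm5662 had 2.64 kb in WT and 13.9 kb in PRC1ctrl with 3.51 kb in PRC2ctrl, and Tdpoz4 had 7.39, 1.08 and 8.56 kb. Usp17lb, a deubiquitinase, had 4.01, 0 and 3.84 kb, and Rpl19 and Rpl22, of 47 ribosomal protein genes, had 4.87 and 6.50 kb in WT against 0 and 3.44 kb in PRC1ctrl. Tdpoz and Usp17l genes occur in near-identical copies, whose reads the mapping could have split.

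**Figure D2:**
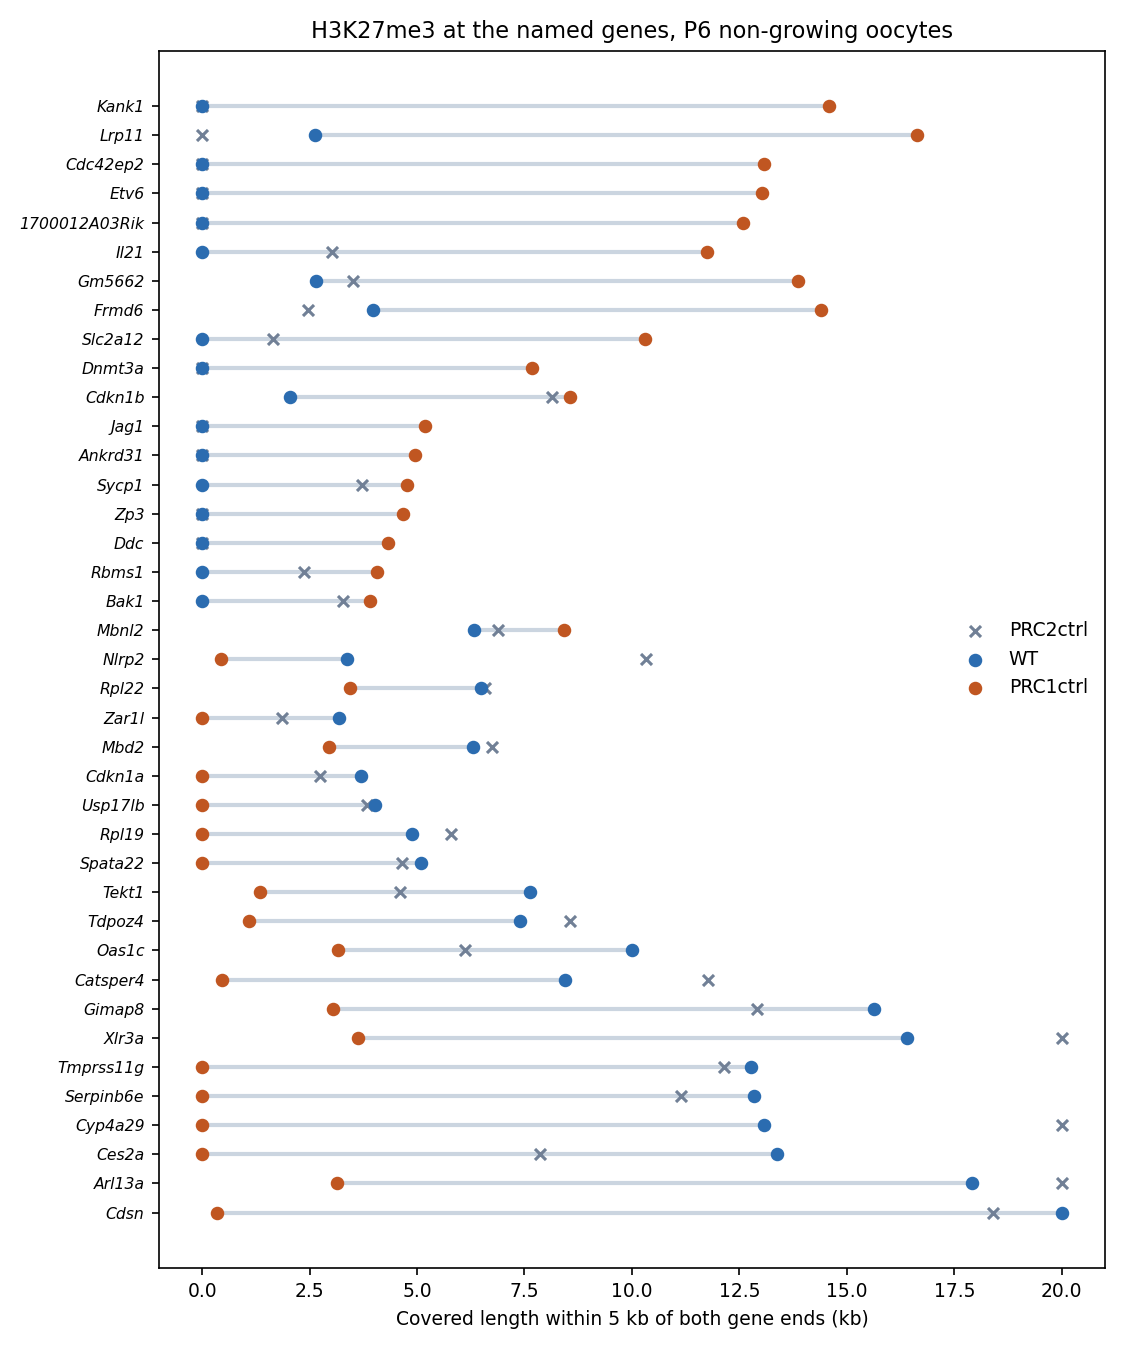
Covered length within 5 kb of both gene ends, in kb, in WT (blue), PRC1ctrl (orange) and PRC2ctrl (grey crosses) at named genes that were marked in 1 of the 2 lists, 1 row per gene, ordered by the difference. Kank1 and Lrp11 stand at the top, with 14.6 and 16.6 kb in PRC1ctrl, and Cdsn at the bottom, with 20 kb in WT and 0.347 kb in PRC1ctrl.

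Outside the lists, the named genes were those where PRC2ctrl had the status of WT, so that agreement of PRC2ctrl with WT was part of their choice. On the PRC1ctrl side, Lrp11 had 2.62 kb in WT and 16.6 kb in PRC1ctrl, with 0 kb in PRC2ctrl and 17.8 kb in PRC1cKO, and Cdc42ep2 had 0 and 13.1 kb, with 0 and 8.74 kb. Kank1 had 0 and 14.6 kb and Slc2a12, a glucose transporter, 0 and 10.3 kb, and PRC1cKO had 0 kb at both. The Kank1 difference was lost with lists trimmed to equal length within every chromosome (0 kb). Il21, a cytokine of T cells, had 0 and 11.7 kb, Frmd6, a FERM-domain protein, 3.97 and 14.4 kb, and 1700012A03Rik 0 and 12.6 kb. The H2AK119ub list of WT covered between 10.7 kb (Lrp11) and 18.8 kb (1700012A03Rik) at these genes.

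On the WT side, Cdsn had 20 kb in WT, 0.347 kb in PRC1ctrl, 18.4 kb in PRC2ctrl and 1.02 kb in PRC1cKO. Ces2a had 13.4, 0, 7.86 and 4.22 kb, and Serpinb6e had 12.8, 0, 11.1 and 0 kb. Cyp4a29, a cytochrome P450, had 13.1, 0, 20 and 3.69 kb, and Tmprss11g, a membrane serine protease, 12.8, 0, 12.1 and 7.14 kb. Arl13a, a GTPase of the ARF-like family, and Xlr3a, of the X-linked Xlr family, had 17.9 and 16.4 kb in WT against 3.13 and 3.63 kb in PRC1ctrl. Gimap8 had 15.6 kb in WT and 3.05 kb in PRC1ctrl. WT H2AK119ub was absent within 5 kb of the ends of Cyp4a29, Serpinb6e and Tmprss11g and covered 9.70 to 19.3 kb at the other 5. Several of these genes belong to families with near-identical copies, as Serpinb6e, Cyp4a29 and Xlr3a do, and their values are uncertain to that extent.

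The WT-only genes included many of clustered, tissue-specific families, which were looked at after the values were seen. Of 1110 olfactory receptor genes 192 were marked in both lists, 129 in WT only (11.6%, against 4.88% of all genes) and 19 in PRC1ctrl only (1.71%, against 3.47%). The 129 genes lay on 14 chromosomes under 130 distinct WT peaks, and 80 of them were marked in PRC2ctrl. In all, 321 olfactory receptor genes were marked in WT, 295 in PRC2ctrl, 264 in PRC2cKO, 219 in PRC1cKO and 211 in PRC1ctrl. The counts changed with the size of the lists. With the WT list trimmed to the number of PRC1ctrl peaks the counts were 52 and 42, against 649 and 1090 of all genes. At that setting more olfactory receptor genes were in WT only, while of all genes more were in PRC1ctrl only. With both lists trimmed to equal covered length the counts were 125 and 20, against 1047 and 774 of all genes.

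Other families gave small counts in the same direction. Of all genes, 4.88% were in WT only and 3.47% in PRC1ctrl only. Of 25 CC chemokine genes 9 were in WT only (36%) and 0 in PRC1ctrl only. Of 28 clade B serpins 8 (28.6%) and 1 (3.57%) were, and of 46 Pramel genes 8 (17.4%) and 0. Of 56 keratin-associated protein genes 8 (14.3%) and 1 (1.79%) were, and of 99 cytochromes P450 9 (9.09%) and 1 (1.01%). CC chemokine genes were marked at P6 in 18 cases in WT, 17 in PRC2ctrl, 9 in PRC1ctrl and 8 in PRC1cKO. At P7 the order was the other way, with 14 in WT and 16 in PRC1ctrl. The WT-only chemokine genes lay on 2 chromosomes. Solute carriers, with 16 of 375 in WT only and 20 in PRC1ctrl only, and zinc finger proteins, with 15 and 12 of 397, stayed near the background of all genes. Members of a cluster can share a peak, so a count over a family is not a count of separate events.

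**Figure D3:**
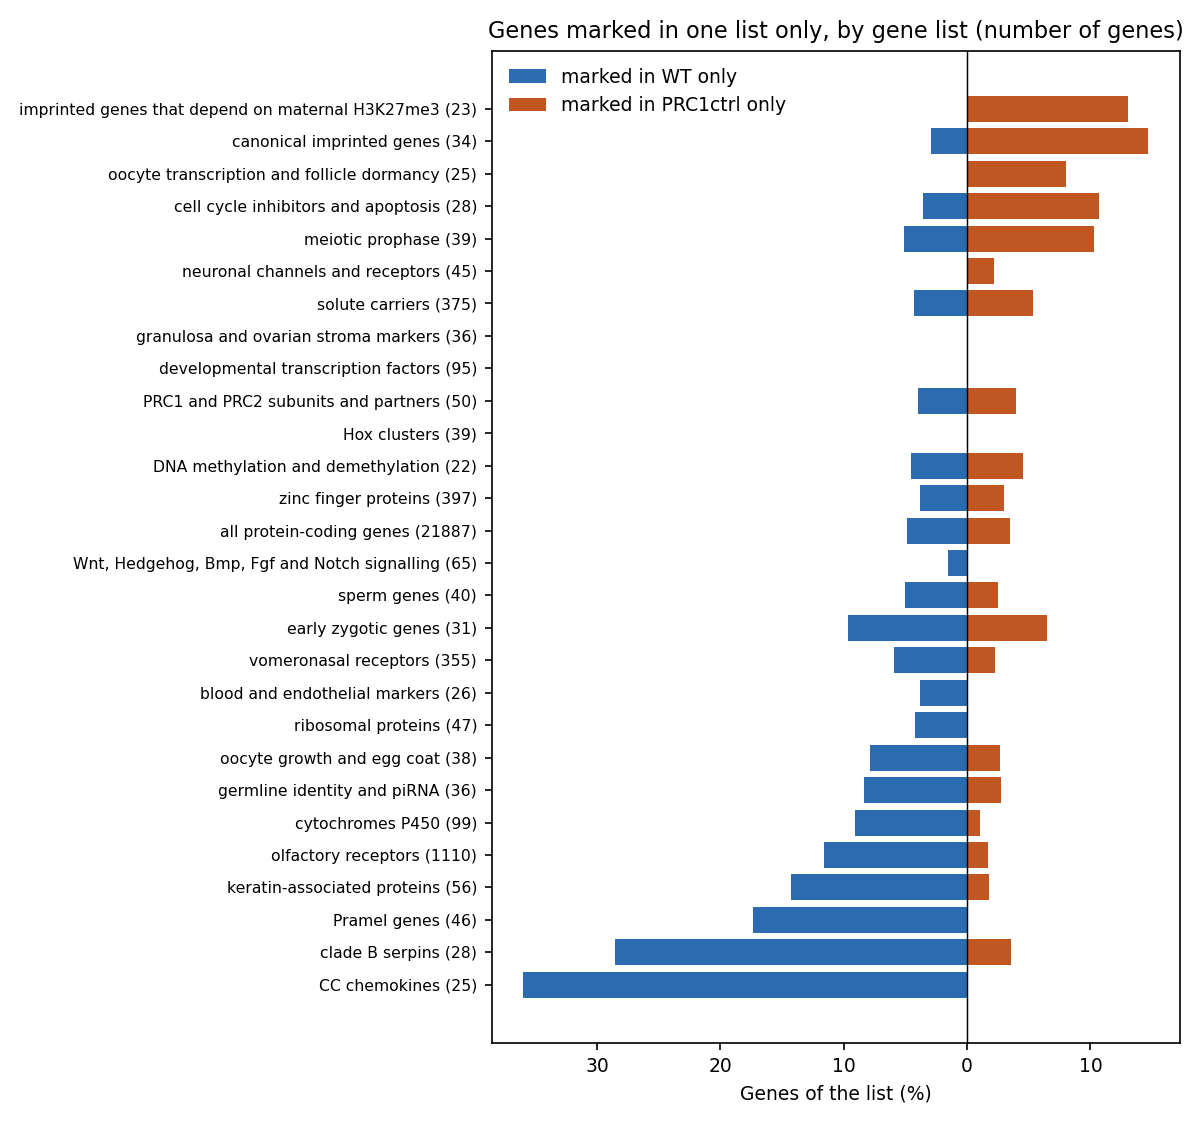
Percent of the genes of each list or family marked in WT only (blue, to the left) or in PRC1ctrl only (orange, to the right), with the number of genes in brackets, ordered by the difference. Imprinted genes stand at the top with 13.0 and 14.7% in PRC1ctrl only, CC chemokines at the bottom with 36% in WT only, and all protein-coding genes at 4.88 and 3.47%.

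The classes differed in other lists from separate libraries. Of the 760 PRC1ctrl-only genes, 610 (80.3%, 77.3 to 83.0%) were marked by H2AK119ub in WT at P6, where H3K27me3 was not called. Of the 1069 WT-only genes 649 (60.7%, 57.7 to 63.7%) were. The shares were 93.9% of the genes marked by H3K27me3 in both lists, 49.3% of those in neither and 67.7% of all genes. In the H2AK119ub list of PRC2ctrl the order was the same, with 72.9% of PRC1ctrl-only and 48.0% of WT-only genes. At equal numbers of peaks the shares in the WT H2AK119ub list lay closer, at 78.8% of PRC1ctrl-only and 68.1% of WT-only genes. For WT against PRC2ctrl, the H2AK119ub shares in the WT list were 72.8% of the WT-only and 67.2% of the PRC2ctrl-only genes.

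Seen in the other P6 lists of H3K27me3, 58.9% (55.9 to 61.9%) of the WT-only genes were marked in PRC2ctrl and 35.4% (32.5 to 38.3%) in PRC1cKO. For PRC1ctrl-only genes the order was the reverse, with 37.8% (34.3 to 41.3%) in PRC2ctrl and 45.8% (42.2 to 49.4%) in PRC1cKO. PRC2ctrl and PRC1cKO both stood with PRC1ctrl's call, against WT, at 172 of the 760 PRC1ctrl-only genes. They both stood with WT's call at 283 of the 1069 WT-only genes. Neither marked 344 WT-only genes (32.2%) and 297 PRC1ctrl-only genes (39.1%), which were thus called in a single list of these 4. PRC2cKO marked 34.7% of the WT-only and 17.4% of the PRC1ctrl-only genes. Over all genes, PRC2ctrl marked 41.8%, PRC1cKO 39.7% and PRC2cKO 34.9%. The WT-only share in PRC2cKO was thus near that of all genes.

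Over the WT time course, PRC1ctrl-only genes were more often marked late. Of the 760, 273 (35.9%, 32.5 to 39.4%) were unmarked at E18.5 and P1 and marked at P7, as Etv6, Kank1, Slc2a12 and Ddc were, against 225 of the WT-only genes (21.0%, 18.6 to 23.6%) and 11.4% of the genes marked in neither list. WT-only genes were more often marked early, with 505 (47.2%) marked at both E18.5 and P1 against 158 PRC1ctrl-only genes (20.8%). The shares were 84.6% of the genes marked in both lists and 2.87% of those in neither. Of all genes, 39.4% were marked in WT at E18.5 and 40.1% at P1. The classes were defined by the WT call at P6, so their shares in other WT lists are not independent of that choice. In the comparison of WT with PRC2ctrl, the late share was 34.2% of the WT-only and 19.5% of the PRC2ctrl-only genes.

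**Figure D4:**
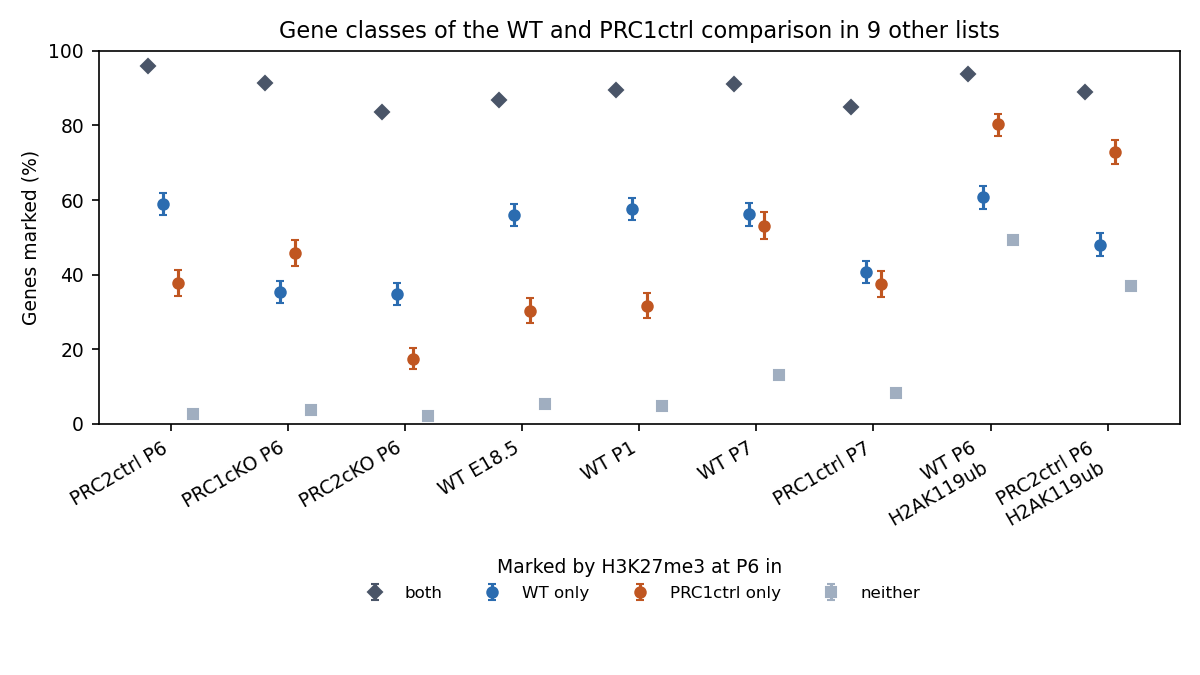
Percent of genes marked in 9 other lists, for genes marked by H3K27me3 at P6 in both WT and PRC1ctrl, in WT only, in PRC1ctrl only and in neither, with exact Clopper-Pearson 95% intervals as bars. WT-only genes stand above PRC1ctrl-only genes in PRC2ctrl (58.9 against 37.8%) and below them in WT H2AK119ub (60.7 against 80.3%), and the intervals overlap in the 2 lists at P7.

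The starts of the 2 classes differed in base composition, as the printed promoters did. In the 250 bases before the start, PRC1ctrl-only genes had a median of 11 CG dinucleotides and WT-only genes a median of 3, against 11 over all genes. At least 15 were found in 41.3% (37.3 to 45.3%) of the PRC1ctrl-only promoters and in 19.7% (17.2 to 22.5%) of the WT-only ones, against 39.6% of all. The median G+C content was 56.4% and 49.2%. The figures rest on 608 of 739 PRC1ctrl-only and 897 of 1063 WT-only genes, leaving chromosome 18 aside. With genes called by their starts only, the shares were 40.7% and 12.6%, and at equal numbers of peaks they lay closer, at 36.6% and 22.4%. On the 5 smallest autosomes 31.6% (22.4 to 41.9%) of the WT-only promoters held at least 15, against 18.3% on the other chromosomes. For PRC1ctrl-only genes the share on the other chromosomes was 41.2%, and on the small autosomes promoters were found for 79.9% of them, too few to give one. Without olfactory and vomeronasal receptor genes the medians were 12 and 4 and the shares 42.8% and 23.2%. For WT against PRC2ctrl the shares were 29.1% of WT-only and 34.1% of PRC2ctrl-only promoters. PRC1ctrl-only genes were also longer, with a median of 21.0 kb against 10.9 kb for WT-only genes and 17.2 kb for all.

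H3K27me3 was distributed differently over the chromosomes in the 2 lists. The ratio of covered length, PRC1ctrl to WT, ran from 0.791 on chromosome 5 to 1.29 on chromosome 18. It was between 1.12 and 1.29 on the 5 smallest autosomes (15 to 19) and between 0.791 and 1.11 on the other 15 chromosomes. Across the 20 chromosomes the ratio fell with the position of the last annotated gene, a stand-in for chromosome length, with a Spearman correlation of -0.71, given as a description. The ratio of PRC2ctrl to WT stayed between 1.01 and 1.09 on every chromosome, with a correlation of -0.24. PRC1cKO to WT ran from 0.788 to 1.29, and PRC1cKO to PRC1ctrl from 0.928 to 1.07. The ratios to WT share the WT list. At P7 the ratio of PRC1ctrl to WT lay between 0.680 and 0.849, with a correlation of 0.19.

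The gene counts were split in the same way. On the 5 smallest autosomes 121 of 3730 genes (3.24%) were in WT only and 165 (4.42%) in PRC1ctrl only, and on the other chromosomes 948 of 18157 (5.22%) and 595 (3.28%). Total covered length was 92.2 Mb in WT and 110 Mb in PRC1ctrl on the former, and 440 and 418 Mb on the latter. The H2AK119ub shares stood in the same order in both sets of chromosomes, with 65.3% of WT-only and 81.2% of PRC1ctrl-only genes on the small autosomes and 60.1% and 80.0% on the others. With lists trimmed to equal length within every chromosome, a choice made after seeing the data, the H2AK119ub shares were 63.7% and 81.0%. The WT list had 16 peaks on the Y chromosome, covering 0.0466 Mb, and PRC1ctrl, PRC2ctrl and PRC1cKO had 0. The WT lists of E18.5, P1 and P7 had 27, 24 and 0, and the origin of these peaks was not tested.

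**Figure D5:**
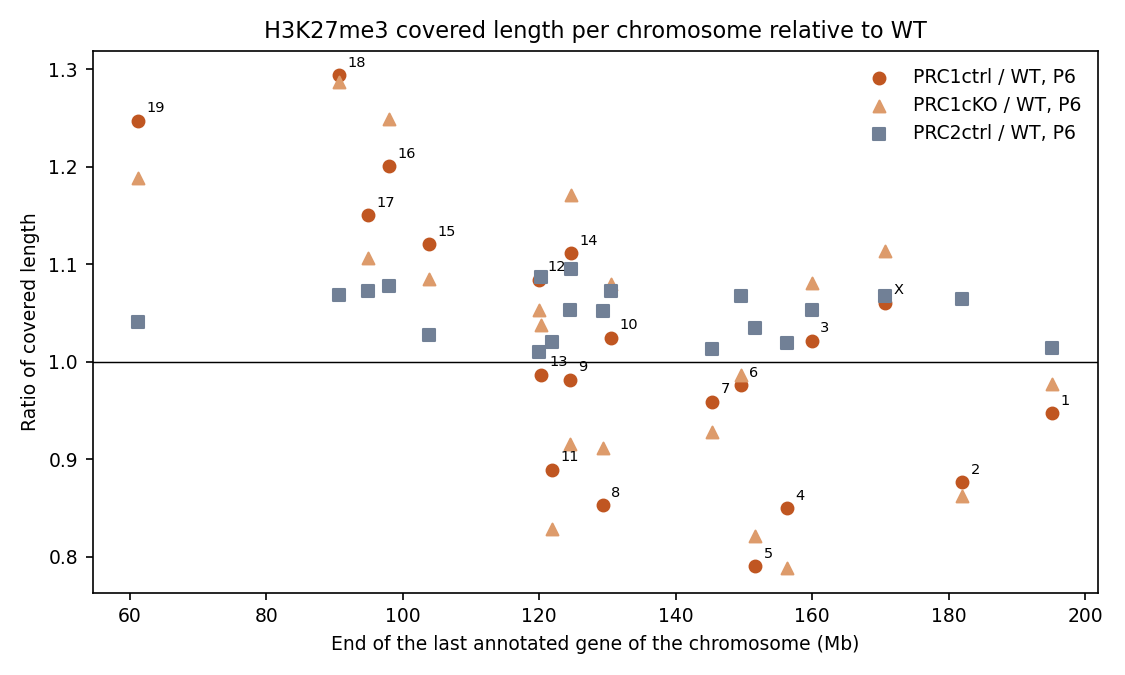
Ratio of H3K27me3 covered length to WT on each of 20 chromosomes, against the end of the last annotated gene in Mb, for PRC1ctrl (circles, with chromosome names), PRC1cKO (triangles) and PRC2ctrl (squares), all at P6. The PRC1ctrl points run from 1.29 on chromosome 18 to 0.791 on chromosome 5, and the PRC2ctrl points lie between 1.01 and 1.09.

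Most of the unshared bases lay in short stretches. WT alone covered 133 Mb in 61915 stretches with a median of 1.87 kb, and PRC1ctrl alone covered 129 Mb in 64621 stretches with a median of 1.31 kb. Stretches of 10 kb or longer numbered 326 in WT (4.13 Mb) and 547 in PRC1ctrl (7.02 Mb). Bases within 1 kb of a gene end made up 2.54% and 2.27% of the unshared length, against 4.36% and 4.31% of the whole lists. Those farther than 100 kb from any gene made up 30.4% and 28.0%, against 21.4% and 20.8%. PRC2ctrl covered 55.8% of the WT-only bases and 42.3% of the PRC1ctrl-only bases, and PRC1cKO covered 36.1% and 50.2%.

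Among the longest stretches of PRC1ctrl alone were chr11:12147133-12174406 (27.3 kb, 62.3 kb from Cobl), chr14:3146134-3173305 (27.2 kb, 5.58 kb from Gm10340), chr1:182780673-182806353 (25.7 kb, in Susd4) and chr14:3831912-3856280 (24.4 kb, 30.9 kb from Gm3050). PRC2ctrl covered 97.9% of the stretch near Gm10340 and 19.4 to 21.9% of the other 3. H2AK119ub in WT covered 96.9% of the Susd4 stretch and 0% of the one near Cobl.

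The longest stretches of WT alone were more often shared with PRC2ctrl. Intergenic stretches at chr5:116678650-116707433 (28.8 kb) and chr5:116650038-116675244 (25.2 kb), 86.1 and 57.5 kb from Srrm4, were covered over 100% in PRC2ctrl and 68.4% and 42.6% in PRC1cKO. Those at chr4:134557754-134583055 (25.3 kb, in Man1c1) and chr2:169237039-169258885 (21.8 kb, 281 kb from Zfp64) were covered over 100% in PRC2ctrl as well. The stretch at chr9:101437137-101463407 (26.3 kb, 185 kb from Ppp2r3a) was covered over 48.7% in PRC2ctrl, 0.742% in PRC1cKO and 100% in WT H2AK119ub. All 5 were covered by between 47.6% and 100% in WT at E18.5.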

How the data were processed

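CUT&Tag peak lists of H3K27me3 and H2AK119ub were used, 1 list per group of 2 samples, 11 lists in all. Reads were 150 bp long and S2 cells of Drosophila served as a spike-in, per the labels' protocols. The builds GRCm38, mm10 and dm6 and the tools SAMtools, deepTools, Bowtie2, Trim Galore 0.6.10 and Picard 3.0.0 appear in the submitters' processing notes. Not given in the sources used here are which program called the peaks, at what threshold, whether the spike-in set the scale, and how both samples of a group were merged. For each peak the authors deposited a signal that, judged from the values, is a sum over the peak in whole numbers. It ranked and filtered the peaks of a list and served for nothing else except its lowest value, which is given for both lists. Read depth is unknown, so precision is described by peak number and covered length.

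Peaks on scaffolds (66 in WT, 44 in PRC1ctrl) were left out. Overlaps were computed with Python 3.11.15, numpy 2.4.6 and pandas 2.3.3, and intervals with scipy 1.17.1. A peak was shared where a peak of the other list overlapped it by 1 bp or more. The computation of covered length was checked on simulated intervals. That of gene calls was checked on the WT list after the peaks of some marked genes were removed, which tests the code only. Promoters came from RefSeq (GRCm38.p6), with none for chromosome 18. They were found for 78.9% of the genes marked in both lists, under the 80% set for such checks, so no composition is given for that class.

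Named genes were, per direction, the 12 members of 18 gene lists marked in 1 list only with the largest difference in covered length, the 8 such genes outside the lists where PRC2ctrl had the status of WT (at most 1 per 100 kb), the 5 longest stretches covered in 1 list only, Ring1, Rnf2 and Eed, and every member of the lists of maternal-H3K27me3 imprinted, oocyte growth and follicle dormancy genes that was marked in 1 list only. The annotation held 703 of the 720 entries of these lists. The groups, members and gene lists were chosen with earlier results of these data known. Alternatives changed the number of peaks, covered length, lowest signal, gaps, gene window, bases needed and overlap, or put PRC2ctrl in place of WT. Some items that the rule names are not reported here.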

Additional observations from a re-analysis of the deposited data

Results flagged for a closer look

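The net number of meiotic prophase genes marked in PRC1ctrl over WT was 2 at P6 and -6 at P7, so the 2 stages had opposite signs. With windows of 5 kb the net at P6 was -1, so the opposite sign held with windows of 1 kb and not with those of 5 kb. The difference between the stages was not tested, since each stage has 1 list per genotype, and the net over all genes was -309 at P6 and -1387 at P7.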

How the results depend on the processing

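With 1 list per group, no replicate could be left out, so that alternative was not run. No paired analysis was possible because the files hold no values per replicate. At equal numbers of peaks 649 genes were marked in WT only and 1090 in PRC1ctrl only, so the larger class changed sides. Under the other 9 alternatives WT-only genes were the larger class and both counts stayed within 1.5 times. The percent of peaks shared (WT, PRC1ctrl) and of covered length shared (WT, PRC1ctrl) was 87.1, 71.0, 80.4 and 70.5 at equal numbers of peaks, 74.4, 84.0, 75.3 and 75.3 at equal covered length, and 75.2, 86.0, 76.1 and 75.5 without the lowest 25% of peaks by signal. It was 76.4, 85.1, 74.6 and 80.3 with peaks within 5 kb joined, 77.4, 83.0, 74.6 and 78.8 with PRC2ctrl in place of WT, and 73.2, 82.9, 75.3 and 75.3 at equal length within each chromosome, a choice made after seeing the data. With 50% of a peak required, 68.2% and 74.7% of peaks were shared. The net of sperm genes turned to 1 at equal numbers of peaks, with windows of 5 kb and at equal length within each chromosome. With windows of 5 kb that of the dormancy list turned to -1, and so did that of meiotic prophase. At Nlrp2 the difference became 0.433 kb at equal numbers of peaks, and that of Zar1l became 0 there. At equal length within each chromosome the differences of Kank1, Bak1 and Zar1l became 0. The other 37 of 41 named genes kept their direction under the 3 trimmed settings. The causes were not tested.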
